A study of Mus musculus with 12 samples.

Results

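The genes described here are the ephrins, the semaphorins and their receptors, as they were expressed in mouse adrenals with and without stabilized β-catenin. They were chosen by symbol alone, as every gene named as an Eph receptor (*Eph*), an ephrin (*Efn*), a semaphorin of classes 3 to 7 (*Sema*) or a plexin (*Plxn*), together with the neuropilins *Nrp1* and *Nrp2*. Among 39017 genes, 53 matched, namely 14 Eph receptors, 8 ephrins, 7 class 3 semaphorins, 13 semaphorins of classes 4 to 7, 9 plexins and 2 neuropilins. A mean of 10 or more counts over the 12 mice was reached by 51 of them, and the same 51 passed the filter on low counts and were tested. Just inside this limit were *Sema3a* with a mean of 10.2 counts and *Epha1* with 12.8. The genes outside it were *Efna3* with 6.33 and *Epha6* with 0.50.

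Eph receptors are receptor tyrosine kinases, and their ligands, the ephrins, are themselves held on the membrane of the neighbouring cell, by a lipid anchor in the A class and by a transmembrane segment in the B class. Binding therefore signals at cell contacts, in both directions, and moves the actin cytoskeleton and cell adhesion. Semaphorins are secreted (class 3) or membrane-bound (classes 4 to 7) cues that act through plexins, which switch small GTPases and loosen integrin adhesion, and most class 3 semaphorins need a neuropilin as co-receptor. Both systems are best known from axon guidance and from the patterning of blood vessels, and both also set borders within epithelia.

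The libraries came from whole adrenals, trimmed of fat, of female mice aged 10 to 11 weeks on a mixed sv129-C57Bl/6 background. Each of the 12 libraries is called a mouse here, although the sources used here do not say that all of them came from different animals. The 6 control mice (Ctrl) were AS Cre/+, and the 6 βCat-GOF mice were AS Cre/+ :: Ctnnb1 fl(ex3)/+. By these genotypes both groups carried Cre in *Cyp11b2* (AS), the aldosterone synthase gene used by the zona glomerulosa (zG), the outer layer of the cortex. The titles of the control samples, however, read Wt_Ctr, and the paper calls the controls of its RNA sequencing wild type. In the βCat-GOF mice Cre cuts exon 3 out of 1 *Ctnnb1* allele, which stabilizes β-catenin in cells that have expressed Cre, while the remaining cells of the gland keep the unrecombined allele. The comparison asks which transcripts accompany the altered zG morphology of these mice. Since the whole gland was sequenced, fewer cells of a type and less RNA per cell cannot be told apart in any value given here.

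Library totals ran from 14090378 to 25625494 counts on genes among the Ctrl mice and from 13484675 to 24951480 among the βCat-GOF mice, so that 3 counts corresponded to 0.117 to 0.222 CPM (counts scaled to a library of 1000000 counts). The targeted gene *Ctnnb1* averaged 21625 ± 858 normalized counts in Ctrl and 21397 ± 1151 in βCat-GOF glands (SD, n = 6 each), which is no check of the genotype, since a missing exon leaves little trace in a count per gene. When the libraries were clustered over all genes tested, the βCat-GOF mice of replicates 1 and 2 joined the 6 controls, and of the genes given mouse by mouse below, those whose call changes or whose log2 fold change moves by over 1.5 times without these 2 are given with both values. That fit was chosen after seeing the data, and the 2 mice were picked for their likeness to the controls in these same counts. Its p-values are thus no separate support for any gene. The labels of the 6 controls begin with the same number and those of 5 βCat-GOF mice with another, so genotype and any family or batch marked by that number cannot be told apart. In addition, 3 pairs of mice share the stem of their label, and βCat-GOF replicates 1 and 2 are 1 of these pairs. These 2 may thus be samples of 1 animal, and the fit without both may leave out only 1 animal. The counts within these 3 pairs differed by more than sampling noise (chi-square divided by its degrees of freedom 39.2 to 42.8, against 15.8 to 136 in the 27 other pairs within a group), so none was deposited in duplicate, but glands or samples of a single animal would also differ in this way. The 39.2 is that of βCat-GOF replicates 1 and 2, whose pairs with the other mutants had 43.0 to 136. All 12 were counted separately, and the p-values are too small if a pair came from 1 animal. With 1 mouse of each pair left out, *Sema3c* and *Sema5a* still passed the test described next and *Sema3d* did not.

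In all, 3 of the 51 genes changed, all of them semaphorins. *Sema3c* and *Sema5a* rose to about the same degree, by folds of 2.20 and 2.07, and *Sema3d* fell to a fold of 0.650 (edgeR's quasi-likelihood test, Benjamini-Hochberg adjusted p under 0.05 over 14953 genes). No Eph receptor, ephrin, plexin or neuropilin passed in edgeR or in DESeq2, and at an unadjusted p under 0.05 in edgeR there were 2 Eph receptors, 0 ephrins, 1 plexin and 0 neuropilins. Among all genes tested, 2.16% were higher and 1.52% were lower at the same threshold, so 2 higher and 1 lower among 51 say nothing about the families as a whole. All 3 genes also met the cut-offs of the study (fold over 1.4, adjusted p below 0.05, base mean over 100), which 1.48% of all genes met as higher and 0.869% as lower. The groups did not overlap in *Sema3c*, with all 6 mutants above the highest control, nor in *Sema3d*, with all 6 mutants under the lowest control. The same held for 1.61% of all genes in the higher and 1.16% in the lower direction.

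The other genes did not differ by more than the test could tell from the spread between mice. The log2 fold change was positive in 20 genes and negative in 31, with a median of -0.09, where 49.97% of all genes tested were negative and their median was 0.00011. A fold of 1.4 in either direction was passed by 10 of the 51, and by 16.5% of all genes. At an unadjusted p under 0.05 there were 10 genes, where 20.4% of all genes reached it. In 41 of the 51 genes the 95% interval of the log2 fold change lay between -1 and 1. In the other 10 genes the interval reached 1 or -1 or beyond.

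**Figure D1:**
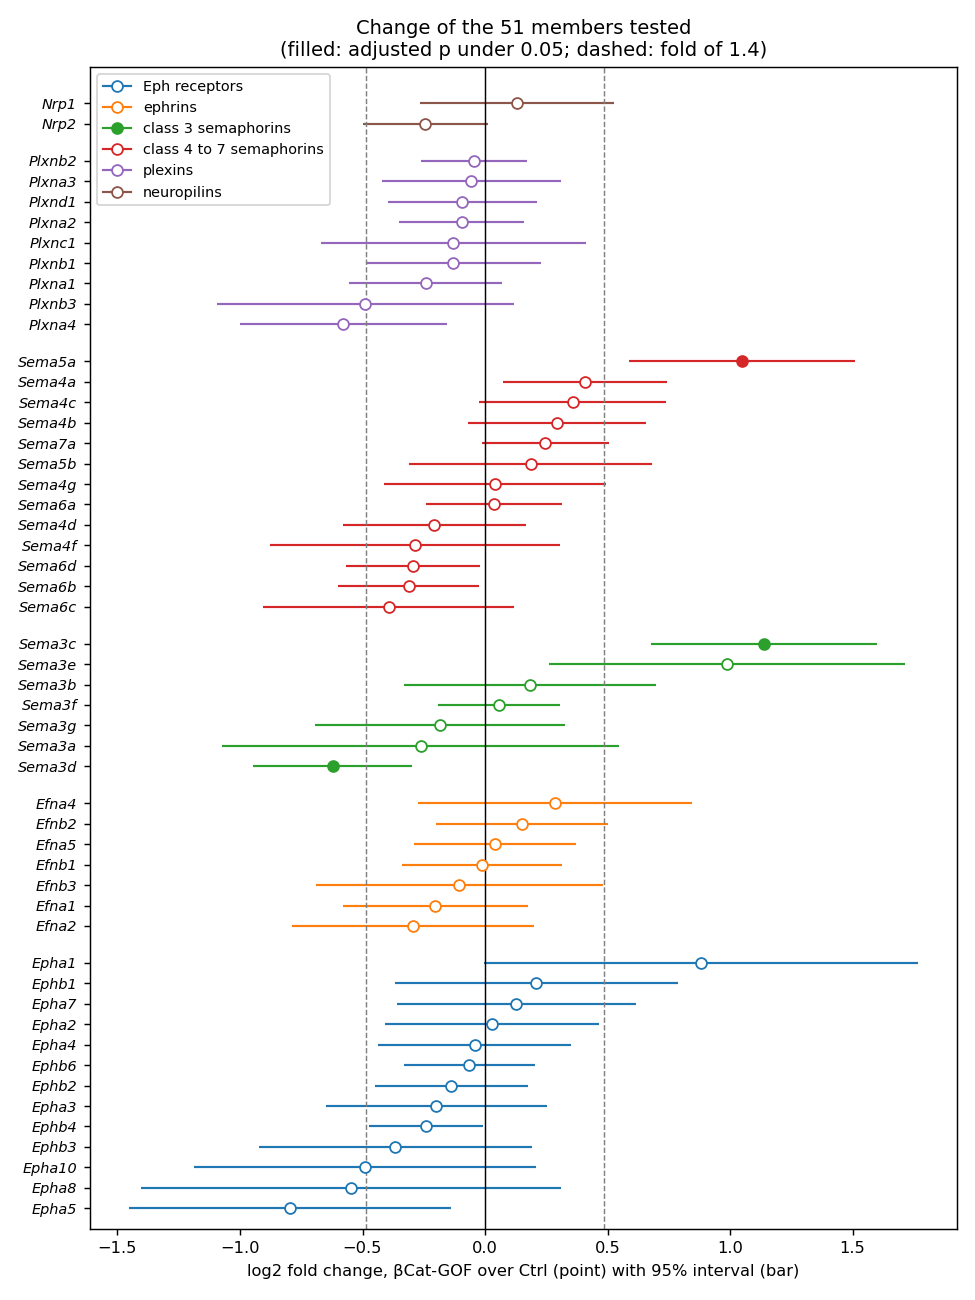
Log2 fold change of βCat-GOF over Ctrl (horizontal axis) for each of the 51 genes tested, grouped by role and coloured by it; points are estimates, bars are 95% intervals, filled points have an adjusted p under 0.05 and dashed lines mark a fold of 1.4. The filled points are *Sema3c* at 1.14, *Sema5a* at 1.05 and *Sema3d* at -0.62, and all 9 plexins lie left of 0.

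The secreted class 3 semaphorins held the highest log2 fold change of the 51 genes and the only call in the lower direction, although their median log2 fold change was only 0.06, with 4 of the 7 genes positive. *Sema3c*, which acts through neuropilins with A-type and D-type plexins and is needed for the cardiac outflow tract, is on the plus strand of chromosome 5 (GRCm38), at 17574281 to 17730268. It had 78.7, 118 and 168 normalized counts in controls (lowest, median and highest of 6 mice) and 214.5, 257 and 348 in βCat-GOF mice. The lowest βCat-GOF mouse thus lay above the highest control. The means were 121 ± 40.0 and 269 ± 52.8 (SD, n = 6 each), which gave a log2 difference of 1.14 (standard error, SE, 0.21, quasi-likelihood adjusted p = 0.0105 in edgeR). With each mouse left out in turn it stayed between 1.05 and 1.26 and passed in all 12 fits.

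*Sema3d*, a secreted semaphorin known from the patterning of veins and of neural crest cells, lies on the same chromosome from 12383385 to 12588948, also on the plus strand. It had 109.6, 134 and 163 normalized counts in controls and 68.0, 90.2 and 108 in βCat-GOF mice, so that the groups were separated by about 1 count. The means were 137 ± 20.7 and 89.3 ± 13.6 (SD, n = 6 each), which gave a log2 difference of -0.62 (SE 0.15, quasi-likelihood adjusted p = 0.0384 in edgeR). This call was close to the threshold. It passed in 3 of the 12 fits that left out 1 mouse, those without Ctrl replicate 5 and without βCat-GOF replicates 1 and 5, while in the other 9 the adjusted p rose to at most 0.0828 and the log2 fold change stayed between -0.68 and -0.56. Without a filter on low counts the adjusted p was 0.0706, and without the 3 mice that share a label stem it was 0.1015.

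*Sema3e*, which binds plexin D1 without a neuropilin and guides growing vessels, had a log2 fold change nearly as large as that of *Sema3c* at far fewer counts, and it is named here after its values were seen. It had 5.00, 14.5 and 16.8 normalized counts in controls and 9.75, 28.5 and 37.5 in βCat-GOF mice, and 5 of 6 mutants exceeded the highest control. The log2 fold change was 0.99 with an SE of 0.34 and did not pass (quasi-likelihood adjusted p = 0.128 in edgeR). Without βCat-GOF replicates 1 and 2 it was 1.27 (adjusted p = 0.0240 from the same test). *Sema3f*, a repellent that signals through neuropilin 2, was the class 3 gene with the highest level per length. It had 388, 475 and 506 normalized counts in controls and 356, 491 and 585 in βCat-GOF mice, and its log2 fold change of 0.06 had a 95% interval from -0.19 to 0.31 (0.16 without βCat-GOF replicates 1 and 2).

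**Figure D2:**
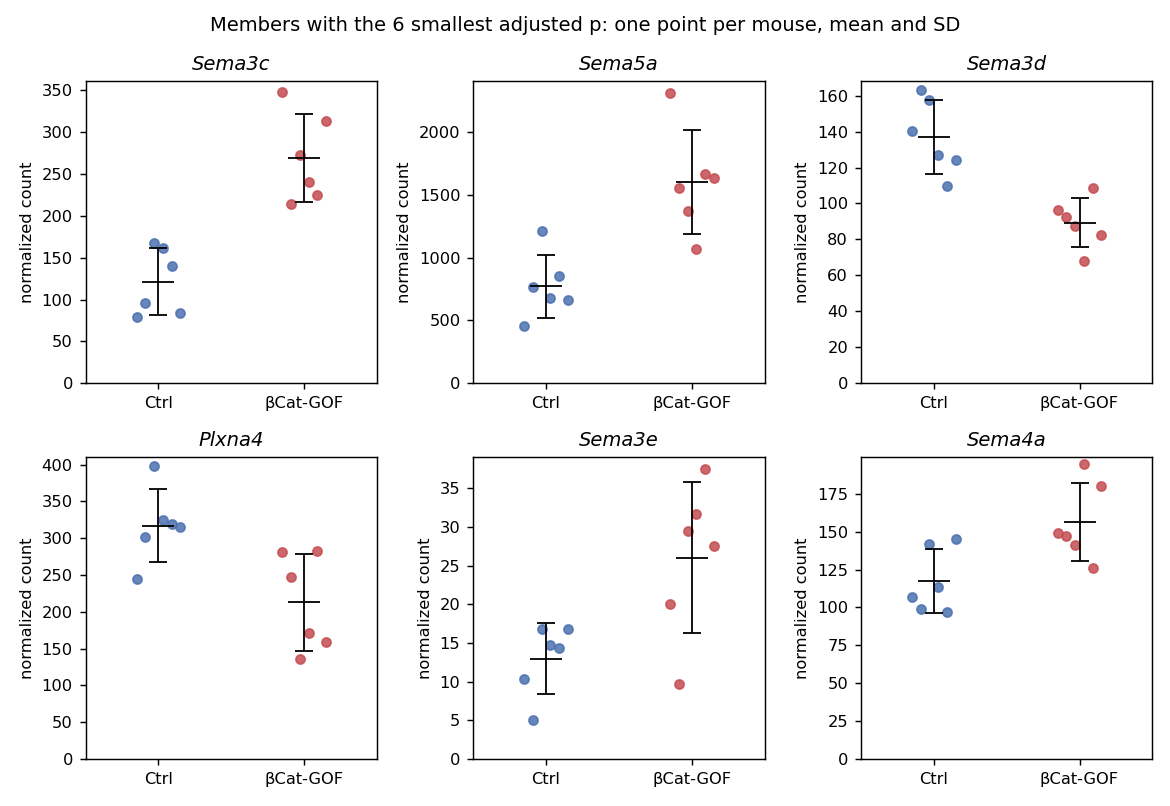
Normalized counts (vertical axis, from 0) in each mouse for the 6 genes with the smallest adjusted p; points are mice, and the bars are the mean and SD of the 6 mice of a group. In *Sema3c* and *Sema3d* the groups do not overlap, while in *Sema5a* the lowest βCat-GOF mouse (1071) lies below the highest control (1209).

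The genes *Sema3d*, *Sema3a*, *Sema3e* and *Sema3c* follow each other in this order on chromosome 5, all on the plus strand. *Sema3a* begins 0.742 Mb after *Sema3d* with no other protein-coding gene between them, *Sema3e* begins 0.900 Mb after *Sema3a* with 1 between them, and *Sema3c* begins 3.55 Mb further on, past 16 other protein-coding genes. The gene that fell and the class 3 gene that rose are thus the outer members of this stretch. *Sema3a*, an axon repellent at the lowest level per length of the genes described, had a log2 fold change of -0.26 (95% interval from -1.07 to 0.55). No exon of *Sema3c*, *Sema3d*, *Sema3e* or *Sema5a* overlaps an exon of another gene. Among all 53 genes the largest overlaps were 14.1% of the exon bases of *Efna3*, 10.7% of *Plxna1* and 10.51% of *Efna4*, in each case with a gene on the opposite strand. Whether the counting used the strand is not given in the sources used here.

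β-catenin acts on transcription through TCF and LEF factors, whose core motif is met in the forms CTTTGAA and CTTTGAT. Both forms, which do not overlap each other, were searched for on both strands of the 300 bases around each RefSeq start (250 before and 50 after it, GRCm38.p6). A window was given for 47 of the 53 genes, and 3 of these (*Epha2*, *Nrp2* and *Sema3e*) held a match, which is 6.38% of the genes against 9.88% of the 27025 genes with a window. None of the 3 called genes held one. The windows of the called genes and of *Sema3e* are shown because they are the starts of the semaphorins with the largest log2 fold changes in either direction, and capitals mark the only match, TTCAAAG, which is CTTTGAA on the minus strand and begins at base 132 of the *Sema3e* window.
Sema3c, chr5:17574566-17574865, plus strand: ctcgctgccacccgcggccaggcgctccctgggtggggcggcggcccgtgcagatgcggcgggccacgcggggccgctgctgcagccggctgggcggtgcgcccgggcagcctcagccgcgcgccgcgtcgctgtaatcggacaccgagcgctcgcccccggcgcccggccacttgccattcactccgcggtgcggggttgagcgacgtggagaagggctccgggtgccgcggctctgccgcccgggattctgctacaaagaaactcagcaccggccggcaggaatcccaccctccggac
Sema3d, chr5:12382916-12383215, plus strand: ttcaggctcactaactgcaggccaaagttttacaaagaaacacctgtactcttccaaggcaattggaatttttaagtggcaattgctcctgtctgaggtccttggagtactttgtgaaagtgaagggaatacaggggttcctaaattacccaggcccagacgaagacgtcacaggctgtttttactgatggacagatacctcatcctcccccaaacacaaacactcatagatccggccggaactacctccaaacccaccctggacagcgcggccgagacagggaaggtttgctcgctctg
Sema3e, chr5:14025026-14025325, plus strand: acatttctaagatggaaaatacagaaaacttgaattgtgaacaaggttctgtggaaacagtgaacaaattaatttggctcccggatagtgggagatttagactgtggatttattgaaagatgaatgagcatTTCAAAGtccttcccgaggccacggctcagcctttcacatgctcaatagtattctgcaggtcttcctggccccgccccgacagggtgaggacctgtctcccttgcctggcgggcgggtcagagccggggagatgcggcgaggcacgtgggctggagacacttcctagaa
Sema5a, chr15:32244563-32244862, plus strand: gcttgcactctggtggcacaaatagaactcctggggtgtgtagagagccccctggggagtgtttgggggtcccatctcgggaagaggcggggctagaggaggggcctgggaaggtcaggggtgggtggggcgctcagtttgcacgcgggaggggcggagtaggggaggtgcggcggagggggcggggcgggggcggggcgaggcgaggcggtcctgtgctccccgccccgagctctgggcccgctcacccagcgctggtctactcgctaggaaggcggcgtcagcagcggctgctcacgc
The windows of *Sema3c* and *Sema5a*, the genes that rose, were rich in G and C (75.7% and 71.3%, with 42 and 23 CpG), while those of *Sema3d* and *Sema3e* were near the median of all windows (49.7% and 50.7% with 8 and 11 CpG, against medians of 52.7% and 7). The gene positions given above come from another annotation (GENCODE M21), whose starts differ from those of RefSeq for *Sema3c* and *Sema3d*. The *Sema3d* window ends before the gene start of 12383385 given above, and the *Sema3c* window begins after that of 17574281. A match is a description of letters and not a bound site, and these windows leave out introns and distant elements.

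Among the membrane semaphorins of classes 4 to 7, 8 of 13 genes had a positive and 5 a negative log2 fold change, with a median of 0.04, and 1 gene passed. *Sema5a*, a transmembrane semaphorin with thrombospondin repeats that has plexin B3 among its receptors, is on the plus strand of chromosome 15, at 32244810 to 32696341. It had 456, 721 and 1209 normalized counts in controls and 1071, 1596 and 2314 in βCat-GOF mice. Of the mutants 5 exceeded the highest control, and the exception was replicate 4. The means were 771 ± 252 and 1603 ± 412 (SD, n = 6 each), which gave a log2 difference of 1.05 (SE 0.22, quasi-likelihood adjusted p = 0.0163 in edgeR). It passed in all 12 fits that left out 1 mouse, with values between 0.92 and 1.23. The highest mouse was βCat-GOF replicate 1, one of the 2 that clustered with the controls, and without those 2 mice the log2 fold change was 0.88 (adjusted p = 0.0261).

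*Sema4a*, known from T cell activation and from the retina, had the next smallest p of these classes. It had 97.0, 110 and 145 normalized counts in controls and 126, 148 and 194.5 in βCat-GOF mice, with 4 of 6 above all controls. Its log2 fold change was 0.41 (SE 0.16, quasi-likelihood adjusted p = 0.164 in edgeR). *Sema4b* had the highest level per length of the membrane semaphorins. It had 728, 1058 and 1150 normalized counts in controls and 882, 1138 and 1750 in βCat-GOF mice, so the ranges overlapped widely (log2 fold change 0.29, 95% interval from -0.07 to 0.66). Without βCat-GOF replicates 1 and 2 the log2 fold change was 0.47 and did not pass either (adjusted p = 0.0708 in edgeR). *Sema6a*, *Sema6b*, *Sema6c* and *Sema6d*, the transmembrane class that binds A-type plexins, had log2 fold changes between -0.39 and 0.04, and none passed.

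All 9 plexins had a negative log2 fold change, between -0.58 and -0.04 with a median of -0.13, and none passed the test. The sign of all 9 was the same under every scaling and filter tried, but *Plxna3* was positive without Ctrl replicate 4, and *Plxna3* and *Plxnb2* were positive without βCat-GOF replicate 3. The median ranged from -0.24 to -0.07 with each mouse left out and was -0.33 without βCat-GOF replicates 1 and 2. *Plxna4*, a receptor for class 3 and class 6 semaphorins on sensory axons, had the lowest log2 fold change of them. It had 244.5, 317 and 398 normalized counts in controls and 136, 209 and 283 in βCat-GOF mice. The low mice were replicates 3, 4 and 6, which lay below all controls, while replicates 1, 2 and 5 lay within the range of the controls. The log2 fold change was -0.58 (SE 0.20, quasi-likelihood adjusted p = 0.125 in edgeR), and without βCat-GOF replicates 1 and 2 it was -0.77 (adjusted p = 0.0337).

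*Plxnb3*, a receptor of semaphorin 5A, had 23.7, 29.0 and 41.1 normalized counts in controls and 12.6, 19.4 and 34.1 in βCat-GOF mice, with 3 of 6 below all controls. Its log2 fold change of -0.49 had an SE of 0.28 (quasi-likelihood adjusted p = 0.351 in edgeR), and without βCat-GOF replicates 1 and 2 it was -0.80 (adjusted p = 0.0983). *Plxnb1*, a receptor of semaphorin 4D, had the highest level per length of all the genes. It had 4590, 6085 and 7468 normalized counts in controls and 4411, 4813 and 8060 in βCat-GOF mice (log2 fold change -0.13, 95% interval from -0.49 to 0.23). The value depended on single mice, since it lay between -0.25 and -0.06 with each left out in turn and was -0.39 without βCat-GOF replicates 1 and 2 (adjusted p = 0.0622 in edgeR). The neuropilins, co-receptors of class 3 semaphorins and of VEGF, differed in sign. *Nrp1* had 2293, 3483 and 4385 normalized counts in controls and 2690, 4021 and 5212 in βCat-GOF mice, a log2 fold change of 0.13 (95% interval from -0.26 to 0.53). *Nrp2* had 969, 1328.5 and 1503 in controls and 899, 1066 and 1291 in βCat-GOF mice, a log2 fold change of -0.24 (95% interval from -0.50 to 0.01). The interval of each thus held 0.

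Of the 13 Eph receptors tested 9 had a negative and 4 a positive log2 fold change, with a median of -0.14, and none passed. The values ran from -0.80 to 0.88. The highest was that of *Epha1* (95% interval from -0.0032 to 1.77), a gene with a mean of only 12.8 counts. *Epha5*, a receptor of A-type ephrins best known from the brain, had the smallest p. It had 41.2, 105.5 and 158 normalized counts in controls and 32.1, 60.3 and 80.4 in βCat-GOF mice. Ctrl replicates 1 and 2, at 41.2 and 74.2, lay within the range of the mutants. The log2 fold change was -0.80 (SE 0.31, quasi-likelihood adjusted p = 0.166 in edgeR). *Ephb4*, which marks veins and binds ephrin B2 on arteries, had 1215, 1318 and 1527 normalized counts in controls and 992, 1076 and 1484 in βCat-GOF mice. In 5 of the 6 mutants it lay below all controls, with a log2 fold change of -0.24 (SE 0.11, adjusted p = 0.233 from the same test). The receptor *Epha6* had at most 2.92 normalized counts in any mouse and was not tested.

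The 7 ephrins tested had log2 fold changes between -0.29 and 0.29, with 3 positive and 4 negative, and not one reached an unadjusted p under 0.05. *Efnb1*, a B-type ephrin that sets borders in the skull and the gut, had 855, 1386 and 1853 normalized counts in controls and 1102, 1340 and 1738 in βCat-GOF mice. Its log2 fold change of -0.01 had a 95% interval from -0.34 to 0.31, and its sign changed when single mice were left out. *Efnb2*, the arterial ligand of *Ephb4*, had a log2 fold change of 0.15 (95% interval from -0.20 to 0.50). *Efna1* had 181, 230.5 and 288 normalized counts in controls and 157, 188 and 294 in βCat-GOF mice, and *Efna2* had 44.9, 65.6 and 85.1 in controls and 31.5, 55.3 and 68.8 in βCat-GOF mice. These had the smallest adjusted p of the ephrins from edgeR's quasi-likelihood test, 0.556 for *Efna1* and 0.505 for *Efna2*. Their log2 fold changes were -0.20 and -0.29, and -0.35 and -0.53 without βCat-GOF replicates 1 and 2 (adjusted p = 0.176 for each in edgeR). That of *Efnb1* was 0.0205 without these 2 mice. *Efna3*, which was not tested, ranged from 1.87 to 8.38 normalized counts in controls and from 4.93 to 15.8 in mutants.

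Levels between genes were compared as CPM divided by the length of the merged exons in kilobases, where the library total behind the CPM was first multiplied by edgeR's TMM factor. On this scale the plexins stood above the semaphorins, at a summed level of 106 ± 9.29 in controls, against 10.2 ± 0.468 for the class 3 and 33.4 ± 2.34 for the class 4 to 7 semaphorins (SD, n = 6). Eph receptors and ephrins were at like levels, with sums of 31.4 ± 2.53 and 31.6 ± 3.66. The 4 plexins *Plxnb1*, *Plxnb2*, *Plxnd1* and *Plxna1* held most of this level, with group means in controls of 31.7, 30.0, 24.6 and 14.2. *Nrp1*, at 18.03, made up 76.0% of the neuropilin level, and *Efnb1*, at 19.9, made up 62.3% of the ephrin level. Among the Eph receptors *Ephb4* led with 14.5, or 46.3% of their sum, followed by *Ephb6* with 5.37, *Ephb2* with 4.11 and *Epha2* with 3.78. *Sema4b* led the membrane semaphorins with 8.85, followed by *Sema7a*, a lipid-anchored semaphorin, with 6.19 and *Sema4c* with 4.96.

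Within their classes, the 2 genes that rose took larger mean shares in βCat-GOF mice. *Sema3c* went from 0.851 ± 0.281 to 1.88 ± 0.383 CPM per kilobase, and its share of the class 3 level from 8.36% ± 2.72 to 17.3% ± 4.34 (SD, n = 6 each), while *Sema3f* kept the largest share at 44.1% and 42.5%. *Sema5a* went from 2.07 ± 0.674 to 4.28 ± 1.16, and from 6.19% ± 1.99 to 10.8% ± 2.82 of the level of classes 4 to 7. The sum over these classes was 33.4 ± 2.34 in controls and 39.7 ± 2.55 in βCat-GOF mice, and these sums have no test. The plexin sum was 97.6 ± 17.8 in βCat-GOF mice, a range of 77.4 to 125 that took in the control range of 92.2 to 120, and the Eph receptor sum was 28.3 ± 3.02 in βCat-GOF mice.

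**Figure D3:**
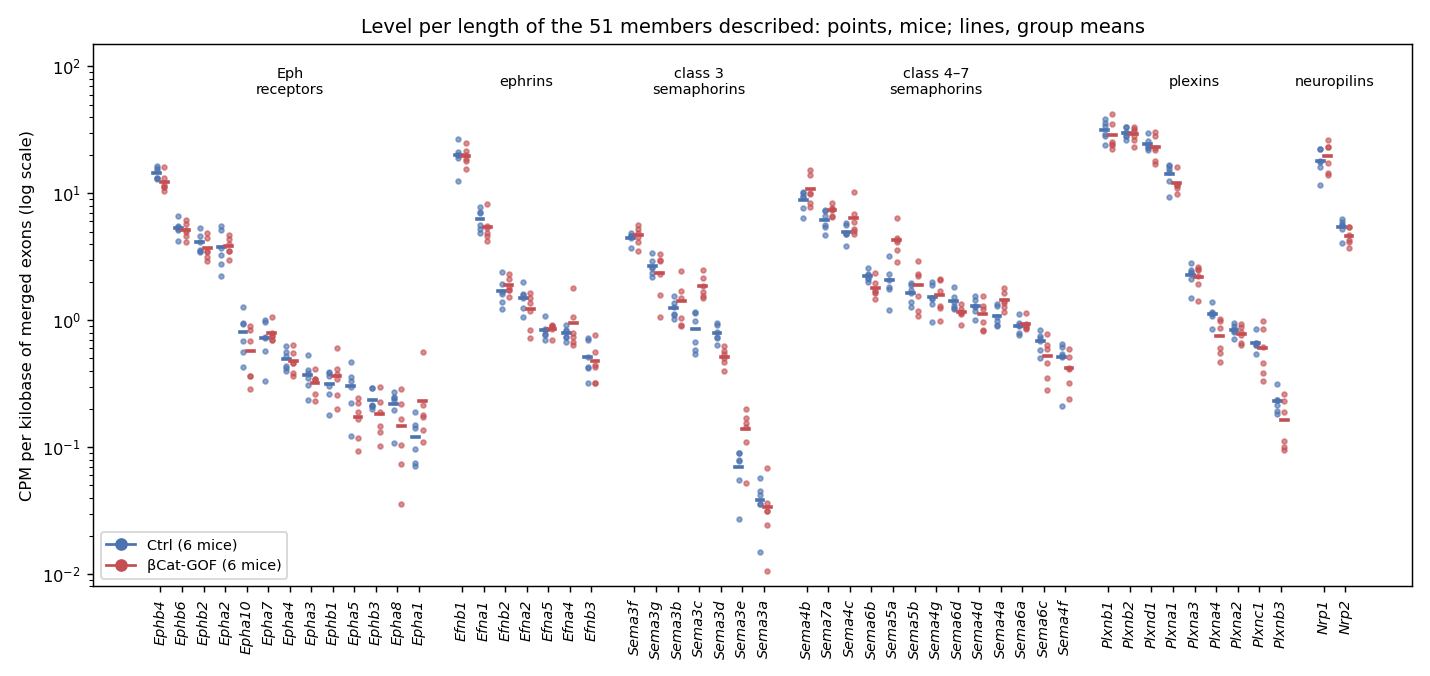
CPM per kilobase of merged exons (vertical axis, log scale) of the 51 genes described, sorted by level within each role; points are mice and horizontal lines are group means, blue for Ctrl and red for βCat-GOF. The plexins *Plxnb1*, *Plxnb2* and *Plxnd1* are highest, and *Sema3a* is lowest at 0.0385 in controls.

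The βCat-GOF mice varied more than the controls. The coefficient of variation between mice had a median of 18.4% over the 51 genes in controls (8.71% to 39.6%) and of 24.6% in βCat-GOF mice (9.41% to 72.5%). It was larger in βCat-GOF mice for 36 of the 51 genes, where the same was true of 70.6% of all genes tested, with medians of 14.3% and 19.6%. *Sema3c* and *Sema5a* went the other way, with 33.0% and 32.7% in controls and 19.6% and 25.7% in βCat-GOF mice.

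**Figure D4:**
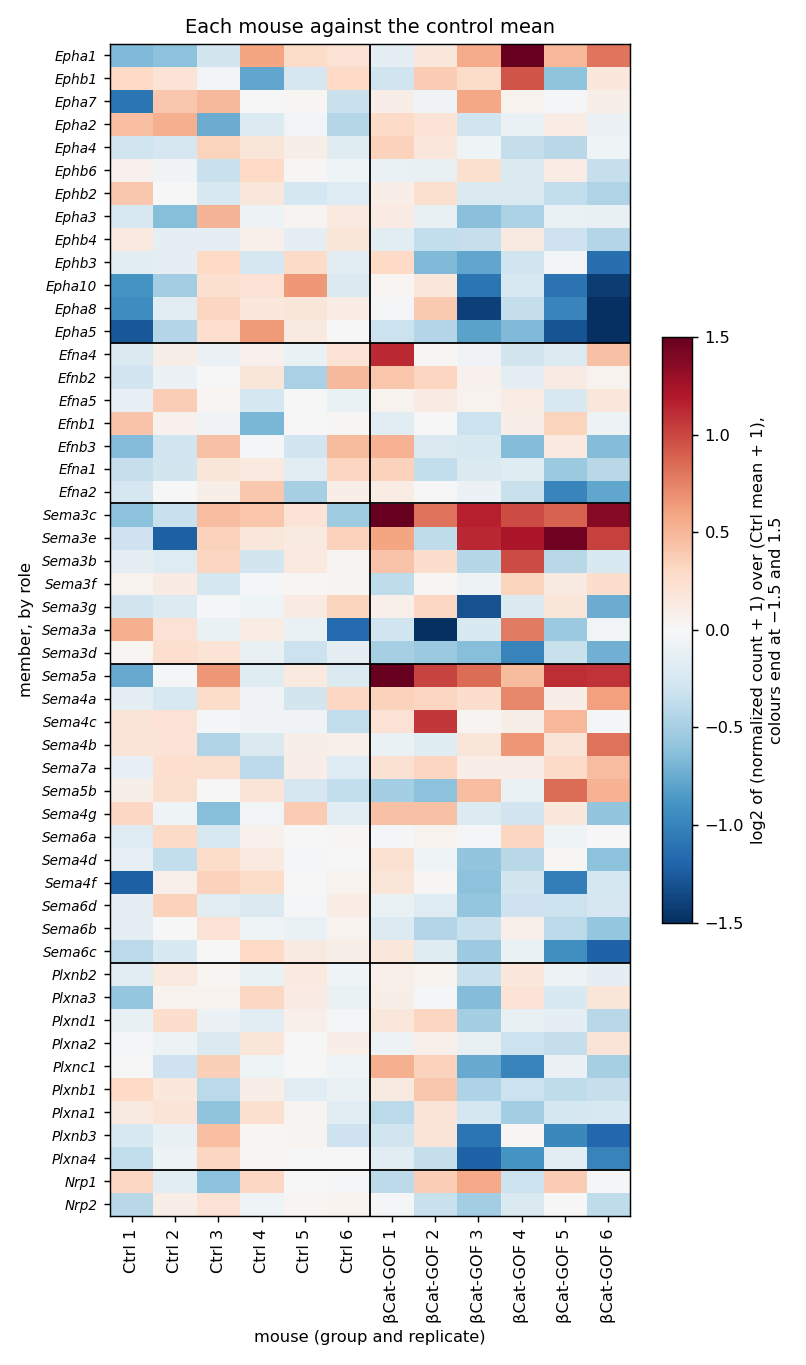
Log2 of the normalized count plus 1 in each of the 12 mice (columns) over the mean of the controls plus 1, for the 51 genes tested (rows, by role, separated by lines); red is higher, blue is lower, and colours end at -1.5 and 1.5. *Sema3c* is red in all 6 βCat-GOF mice and *Sema3d* blue in all 6, while the low values of *Plxna4*, *Epha5* and *Plxnb3* fall on some βCat-GOF mice more than on others.

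Other genes of these pathways were taken from 3 lists. Among all genes tested in edgeR 2.16% were higher and 1.52% lower, and 20.4% reached an unadjusted p under 0.05. Of the semaphorin and plexin partners 2 of 30 were lower, and of the other guidance families 1 of 21 was higher. Both shares exceed those of all genes but rest on so few genes that nothing is read from them about the lists. Of 31 partners of Eph and ephrin signalling (adaptors, GTPase regulators and proteases) 30 were tested and 0 passed in edgeR's quasi-likelihood test (7 at an unadjusted p under 0.05), with 18 positive and 12 negative log2 fold changes and a median of 0.03. DESeq2 called 4 of them as higher, *Nck2*, *Tiam1*, *Itsn1* and *Inppl1*, where it called 3.98% of all genes with an adjusted p as higher and 3.32% as lower. *Nck2*, an adaptor bound by activated Eph receptors, averaged 488 ± 19.8 normalized counts in controls against 601 ± 56.9 in mutants, and *Tiam1*, which activates Rac, had 1112 ± 96.8 and 1370 ± 135 (SD, n = 6 each). In both genes the 6 mutants were all above the highest control, as was so for 1.61% of all genes tested. Their log2 fold changes were 0.29, and neither passed, with adjusted p values of 0.0718 and 0.0746 from edgeR's test.

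Among 31 partners of semaphorin and plexin signalling 30 were tested and 2 fell, *Cd72* and *Itga1*, with 11 at an unadjusted p under 0.05 and a list median of -0.01. *Cd72*, a receptor of semaphorin 4D on B cells and other leukocytes, averaged 129 ± 34.2 normalized counts in controls against 69.5 ± 14.4 in mutants, or -0.89 on the log2 scale (quasi-likelihood adjusted p = 0.0306 in edgeR). *Itga1*, an integrin chain bound by semaphorin 7A, averaged 743 ± 61.0 against 544 ± 94.6, or -0.45 on the log2 scale (adjusted p = 0.0483 from the same test). Neither call was stable, since *Cd72* passed in 6 and *Itga1* in 2 of the 12 fits that left out 1 mouse, with adjusted p values up to 0.0766 and 0.102. *Cd72* lost its call without Ctrl replicates 1, 3 or 6 and without βCat-GOF replicates 3, 4 or 6, and *Itga1* kept its call only without Ctrl replicate 1 or βCat-GOF replicate 1. DESeq2 called 5 genes of the list as lower, the other 3 being *Dpysl3*, *Tyrobp* and *L1cam*. Of 25 genes of the other guidance families (Slit, Robo, netrin and RGM) 21 were tested, with a median of -0.14 and 5 at an unadjusted p under 0.05, and 1 rose. *Ntn4*, a netrin of basement membranes, averaged 523 ± 123 normalized counts in controls against 957 ± 256 in mutants, or 0.87 on the log2 scale (quasi-likelihood adjusted p = 0.0246 in edgeR), and passed in 10 of the 12 fits that left out 1 mouse. Without Ctrl replicates 5 or 6 its adjusted p was 0.0572 and 0.0547. *Unc5a*, a netrin receptor, had a log2 fold change of -0.93 that did not pass in edgeR (adjusted p = 0.0908) and did in DESeq2.

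Markers of the cell types of the gland moved with the groups to differing degrees, and their part in the results above was not tested. The 12 zG markers summed to 2271 to 3466 CPM (on library totals multiplied by TMM factors, as above) in controls and to 2775 to 4181 in βCat-GOF mice (exact permutation test, two-sided, p = 0.0195, adjusted over 11 lists 0.214). On plain library totals the p was 0.0628. The highest of these markers in controls were *Dab2* and *Mc2r*, with means of 13477 and 9631 normalized counts. Whether each marker is particular to the zG was not tested. *Agtr1b*, *Agtr1a*, *Vsnl1* and *Dab2* rose among the 11 zG markers tested, in the same direction as *Sema3c*, *Sema5a* and *Ntn4*, while *Cyp11b2* itself had 5162 ± 2063 and 4544 ± 2824 normalized counts (SD, n = 6 each). *Oprk1*, also on this list, had 0 counts in every control. Cre is placed in *Cyp11b2* itself, so the groups would also differ in their alleles of this gene if the controls were wild type. That was not tested. The 9 zona fasciculata markers summed to 61504 ± 3559 and 71186 ± 21226 CPM. Of these 2 of 9 were higher, *Akr1b7* and *Mrap*, with log2 fold changes of 1.48 and 1.03. The highest in controls were *Hsd3b1*, *Star*, *Cyp11b1* and *Cyp11a1*, with means of 436417, 294425, 257081 and 148399 normalized counts. Whether the markers of this list are particular to this zone was not tested, so the sum may reflect other steroid-producing cells as well.

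The 10 macrophage markers, given beside *Cd72*, summed to 451 to 857 CPM in controls and to 358 to 593 in βCat-GOF mice (two-sided exact permutation p = 0.119, and 0.0498 on plain library totals), and 2 of 10 fell, *Adgre1* and *Mrc1*. Of the 7 lymphocyte markers, also given beside *Cd72*, 5 were tested and 1 fell, *Cd4*, a co-receptor of helper T cells that macrophages can also carry. It averaged 24.2 ± 9.52 normalized counts in controls and 9.49 ± 2.51 in mutants (SD, n = 6 each), or -1.35 on the log2 scale (quasi-likelihood adjusted p = 0.0330 in edgeR). The 10 Schwann cell and neuron markers, given beside *Epha5*, *Plxna4* and *L1cam*, summed to 37.5 to 98.8 and to 32.5 to 68.8, with all 9 tested genes negative and none past the test. The 10 chromaffin cell markers summed to 4997 to 15518 and to 6208 to 11668, and the 12 endothelial markers, given beside *Ephb4*, *Plxnd1* and the neuropilins, to 719 to 862 and to 636 to 914. None of the chromaffin or endothelial markers passed. Negative log2 fold changes were found in 8 of 10 chromaffin, 9 of 12 endothelial and 9 of 10 macrophage markers. They were also found in 6 of 8 pericyte and smooth muscle and 4 of 5 lymphocyte markers tested. Positive ones were the more frequent among zG (9 of 11), zona fasciculata (6 of 9), erythroid (4 of 5) and adipocyte markers (4 of 7). Capsule and stroma markers had 5 of each sign. The summed CPM were 646 ± 138 and 557 ± 157 for capsule and stroma, 234 ± 14.6 and 218 ± 43.2 for pericytes and smooth muscle, 399 ± 280 and 498 ± 232 for adipocytes, 4.34 ± 1.06 and 3.10 ± 1.15 for lymphocytes and 182 ± 80.3 and 189 ± 45.3 for erythroid cells (SD, n = 6 each). None of the 11 sums passed after adjustment.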

How the data were processed

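RNA of whole adrenals was sequenced for 6 Ctrl and 6 βCat-GOF mice. According to the study's methods and the labels, the authors trimmed adapters with cutadapt, aligned reads to mm10 with STAR and quantified uniquely mapping reads per gene with featureCounts 1.4.4. They deposited these counts for 39017 genes, without normalization, and a signal table in which each library's counts are divided by 1 factor. The deposited counts were used for every value and the signal only for symbols and factors. The annotation release and the strand setting are not given in the sources used here. No column was left unmapped (0).

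Genes were tested with edgeR 4.0.16 in R 4.3.3 (TMM, filterByExpr, quasi-likelihood test, two-sided, Benjamini-Hochberg adjustment over 14953 genes). The standard error is the size of the log2 fold change divided by the square root of F. Normalized counts are counts divided by DESeq2 median-of-ratios factors. Levels per length and marker sums used CPM on library totals multiplied by TMM factors. Lengths were those of merged exons of GENCODE M21 (GRCm38), in which all 53 genes have a position. Promoters came from RefSeq (GRCm38.p6). Marker sums were compared by exact permutation of the 12 mice into 6 and 6. On simulated counts with 200 genes changed by 1.5 on the log2 scale, the edgeR step recovered 96.5% with 6 false calls among 14825 genes, and DESeq2 1.42.0 recovered 97.5% with 37 among 14953. The highest log2 fold change among the 51 genes was 1.14, and genes with few counts were not among those changed. The recovery therefore does not tell how well changes of the size seen here are found.

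The genes and lists were chosen with earlier results of these data known. Values per mouse are given for genes that passed, genes whose groups did not overlap, the 2 smallest p of each role and the highest level per length of each role. In the partner lists the called genes and at most 4 with the smallest p are named, and genes called by DESeq2 were added. *Sema3e*, *Sema3a*, the class 6 semaphorins, *Epha1* and *Efnb2* were named after their values were seen. p-values measure only the spread between these libraries, which the sources used here do not tie to 12 animals, and intervals rest on 6 mice per group. Alternatives were DESeq2 (without shrinkage), its size factors in edgeR, other filters and thresholds, and leaving out mice. Figures used Python 3.11.15 and matplotlib 3.10.9.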

Additional observations from a re-analysis of the deposited data

Results flagged for a closer look

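In 102 groups of 6 mice (51 genes in Ctrl and in βCat-GOF), 7 had 1 mouse far from the other 5 by Dixon's test at the 95% level. Chance alone gives such a mouse in about 1 of 20 groups, so a number of this size is not unusual. None of the 7 concerns a gene that passed the test between the groups. Values are normalized counts.

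*Epha1*, near the limit of 10 counts, had 44.3 in βCat-GOF replicate 4, against 8.50 to 17.2 in the other 5 mutants. *Epha7* had 213.8 in βCat-GOF replicate 3, against 137 to 154. *Sema6a* had 199.3 in βCat-GOF replicate 4, against 152 to 165. *Efna1* had 293.7 in βCat-GOF replicate 1, against 157 to 202, and *Plxna1* had 2923 in βCat-GOF replicate 2, against 1787 to 2163. These 2 mice are the ones that clustered with the controls over all genes. *Efna5* had 57.2 in βCat-GOF replicate 5, below the 69.6 to 75.8 of the others. *Sema4f* had 22.5 in Ctrl replicate 1, below the 53.9 to 68.6 of the other controls.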

How the results depend on the processing

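*Sema3c* and *Sema5a* passed under every alternative tried, and with each mouse left out the number of members called as higher was 2 to 2. The number called as lower, 1 (*Sema3d*), was 0 without a filter on low counts, 0 without the 3 mice that share a label stem and 0 to 1 with each mouse left out. Without βCat-GOF replicates 1 and 2, an alternative chosen after seeing the data, it was 2 (*Sema3d* and *Plxna4*), and *Sema3e* was also called as higher. Over all genes that setting gave 905 higher and 835 lower, against 323 and 228 in the main comparison, and DESeq2 gave 672 and 561. The 2 mice share a label stem and may be samples of 1 animal. Since they were picked for likeness to the controls, that setting favours larger differences between the groups. Its calls are thus no separate support. Why DESeq2 called more genes was not tested. DESeq2 called 4 genes as higher among the Eph and ephrin partners (0 in edgeR), 5 as lower among the semaphorin and plexin partners (2) and 1 as lower in the other guidance families (0). The log2 fold change of *Efnb1*, -0.01, turned to 0.13 without the 3 mice that share a stem, to 0.0205 without βCat-GOF replicates 1 and 2, and lay between -0.12 and 0.10 with each mouse left out. That of *Sema3f*, 0.06, lay between -0.0036 and 0.14. Of the 380 values of single named genes under the alternatives 339 kept direction and side of the threshold, 32 lost their call, 2 gained one and 7 changed sign. No marker sum changed direction on plain library totals, but the unadjusted exact permutation p went from 0.0195 to 0.0628 for zG, from 0.119 to 0.0498 for macrophage and from 0.193 to 0.0519 for endothelial markers, with no adjusted p under 0.230. No paired analysis was possible because the labels give no replicate numbers shared between the groups. Genes with few counts, such as *Sema3e*, *Sema3a* and *Epha1*, have wide intervals at this depth.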
